A study of Mus musculus with 11 samples.

Results

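The mandibular arch of ICR mouse embryos at E10.5 (E for embryonic day) was compared between its medial and its lateral part. Medial tissue was the tip, cut at the distal end of the facing lateral lingual swellings, and lateral tissue was most of what remained of the arch. The comparison was chosen by the array titles, which put 3 arrays in the medial E10.5 group and 3 in the lateral E10.5 group, 6 of the 11 arrays of the series. The other arrays held medial and lateral tissue at E9.7 (1 array each), medial tissue at E11.5 (2 arrays) and medial tissue at E14.5 (1 array). All embryos were of the same outbred strain and were untreated, and no allele was altered. Each array carried labelled cRNA made from 3 µg of total RNA. The labels state pools of 40 embryos for each time point and do not say whether replicates came from separate pools. P-values therefore measure the spread between arrays alone, part or all of which may be technical, and precision is limited by how few arrays there are.

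The mandibular arch is built of mesenchyme from the cranial neural crest around a core of mesoderm, covered by ectoderm outside and endoderm inside. Its mesenchyme acquires positional identity along the axis from the hinge of the jaw to the midline. Ectodermal FGF8 and endothelin act on proximal and intermediate mesenchyme, where Dlx and Barx1 genes are known to be used, and BMP4 acts on the distal tip, where Hand, Msx and Gata genes are known to be used. The medial tip later contributes to the mandibular symphysis, the incisor region and the front of the tongue.

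Values are log2 signals of probe sets after quantile normalization across the 11 arrays, and each gene was read by its probe set of highest mean. A difference is medial minus lateral on this log2 scale, so that 1 is a 2-fold excess in medial tissue and -1 a 2-fold excess in lateral tissue. Of 18193 genes named on the array, 11967 reached the filter level of 4.86, the median of all values, on 2 or more of the 8 arrays from groups with replicates and were tested. A gene was called at a limma adjusted p under 0.05. Before scaling, the median signal was 2.37 on medial replicate 1 and between 5.36 and 5.73 on the other 5 arrays of the comparison. After quantile normalization the first principal component of the 6 arrays, with 54.7% of the variance, placed the medial arrays between -26.5 and -13.8 and the lateral arrays between 14.6 and 25.0.

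In the tip of the arch 338 genes were higher and 216 were lower than in lateral tissue, 554 in all, which is 4.63% of the tested genes (2.82% higher and 1.8% lower). By at least 2-fold, 145 were higher and 106 lower, and by at least 4-fold, 23 were higher and 31 lower. Without adjustment, 1927 genes had a p under 0.05. For each of the 554 genes all medial arrays lay on 1 side of all lateral arrays, and the same was true of 25.0% of all tested genes. The median difference of all tested genes was -0.01. Without lateral replicate 2 the count was 314, and without lateral replicate 3 it was 310. The count of lower genes was 142 without lateral replicate 1. Judged by their control probe sets for spiked-in RNA, the arrays fell into 4 groups, of which 1 held medial replicate 2 and lateral replicate 1 and another held medial replicate 3 and lateral replicates 2 and 3. Within each of these groups all 554 genes had the sign of the pooled difference, which is largely built in because the same arrays made the calls. Medial replicate 1 shared its group with medial replicate 1 of E11.5 and with no lateral array. After normalization its 18S rRNA signal was 11.84 for the 5' probe set, against 7.70 to 9.32 on the other 5 arrays of the comparison. Without medial replicate 1 the count was 528. With the control-probe group as a fixed effect, 1254 genes were called. A total of 283 genes, 180 higher and 103 lower, kept their call in each of the 6 refits that left out 1 of these arrays, and the genes named below belong to these 283 unless stated. With the values as deposited, in which medial replicate 1 lay far below the others, 2 genes were called, both lower, and the median of all genes shifted to -1.02. With each array centred on its median it shifted to 0.11 and 358 genes were called. Smaller differences change sign under the first of these scalings.

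**Figure D1:**
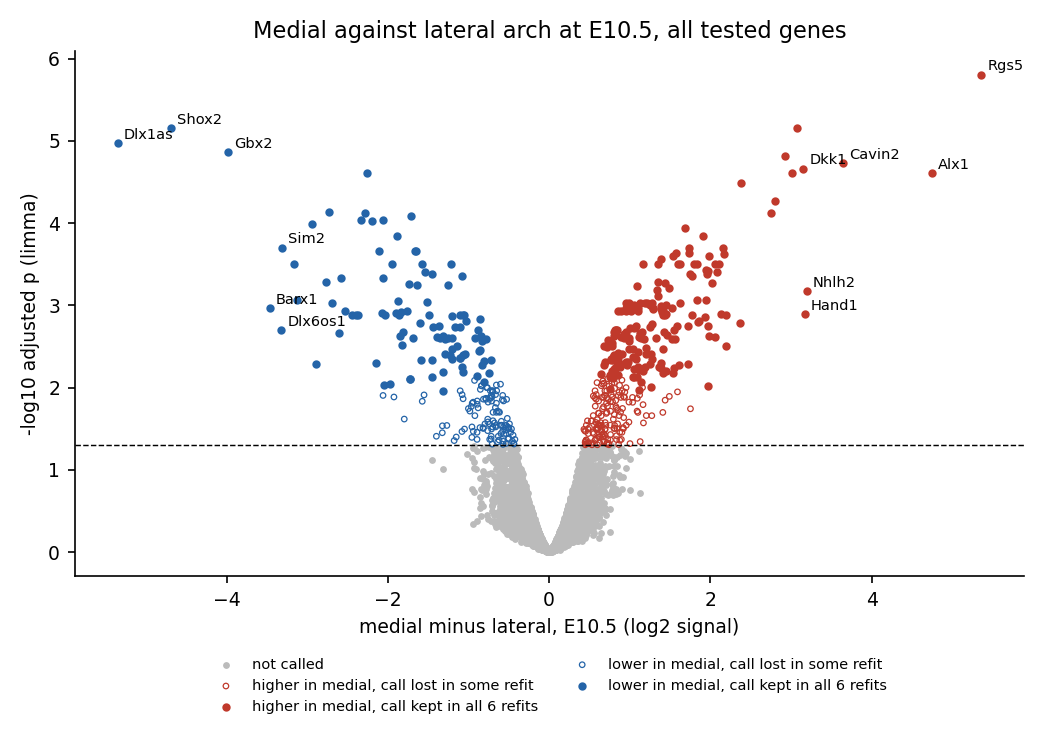
Difference between medial and lateral tissue at E10.5 (x axis, log2 signal) against the -log10 limma adjusted p (y axis) for 11967 tested genes, with filled points for called genes that kept the call in all 6 refits, open points for other called genes and a dashed line at the threshold of 0.05. The differences of all tested genes ran from -5.35 to 5.36, and the furthest genes on both sides are named.

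The gene furthest toward medial tissue was Rgs5, a regulator of G-protein signalling known from pericytes. Its log2 signal was 9.20, 9.10 and 9.51 on the medial arrays and 3.64, 4.02 and 4.08 on the lateral arrays. All lateral values were in the dim range below the filter level. The difference was 5.36 ± 0.16 (limma SE, n = 3 per side, limma adjusted p = 1.56e-06). Each SE here and below is moderated by limma. It comes from a fit that pooled the spread over all groups with replicates, E11.5 included. The homeobox gene Alx1, known from frontonasal and distal arch mesenchyme, was at 8.85, 9.697 and 9.76 in medial tissue and at 5.001, 4.59 and 4.48 in lateral tissue. Medial replicate 1 was the lowest of the medial arrays, and the difference was 4.75 ± 0.26 (limma adjusted p = 2.44e-05).

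Cavin2, which encodes a coat protein of caveolae, was at 7.60, 7.96 and 7.51 in medial tissue against 4.39, 3.97 and 3.78. The difference was 3.64 ± 0.18 (limma adjusted p = 1.87e-05). Nhlh2, a basic helix-loop-helix gene known from neuroendocrine cells, was at 5.26, 6.12 and 6.74 against 2.92, 2.87 and 2.75. The medial arrays were spread over more than 1 log2 unit, and the difference was 3.19 ± 0.32 (adjusted p = 0.000666). Hand1, a basic helix-loop-helix gene of the distal arch, was at 7.60, 8.53 and 9.05 against 4.76, 5.62 and 5.28, a difference of 3.17 ± 0.36 (adjusted p = 0.00128). Dkk1, which encodes a secreted inhibitor of Wnt signalling, was at 9.27, 9.63 and 9.74 against 6.15, 6.40 and 6.62, a difference of 3.15 ± 0.16 (adjusted p = 2.17e-05). For Hand1 and Dkk1 every array of the lower tissue but 1, lateral replicate 1 for Hand1, was above the filter level.

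Furthest toward lateral tissue was Dlx1as, a transcript antisense to Dlx1. It was at 3.83, 4.08 and 3.06 on the medial arrays and at 9.14, 8.82 and 9.06 on the lateral arrays. The difference was -5.35 ± 0.23 (limma adjusted p = 1.07e-05), and all medial values were dim. Its span overlaps that of Dlx1, and how far its probe set separates the strands was not tested. Shox2, a homeobox gene known from limb, palate and jaw joint, was at 3.63, 4.20 and 3.63 against 8.63, 8.58 and 8.34, a difference of -4.70 ± 0.19 (adjusted p = 6.91e-06). Gbx2, a homeobox gene that responds to FGF8 in arch tissue, was at 2.99, 3.19 and 2.59 against 7.07, 6.62 and 7.03, a difference of -3.98 ± 0.18 (adjusted p = 1.36e-05). For both genes the medial arrays were dim and the groups lay more than 3 log2 units apart.

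Barx1, a homeobox gene of proximal mesenchyme and molar regions, was at 7.75, 7.48 and 5.997 in medial tissue against 10.45, 10.60 and 10.58 in lateral tissue. Medial replicate 3 was the lowest of the medial arrays, and the difference was -3.47 ± 0.38 (limma adjusted p = 0.00107). Dlx6os1, a transcript overlapping Dlx6, showed the same order, with 5.73, 5.43 and 3.81 against 8.42, 8.20 and 8.34. Its difference was -3.33 ± 0.42 (limma adjusted p = 0.00199), and how far its probe set separates the strands was not tested. Sim2, a bHLH-PAS gene, was at 3.51, 2.73 and 2.41 against 6.32, 6.29 and 5.997, a difference of -3.32 ± 0.25 (adjusted p = 0.000198).

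**Figure D2:**
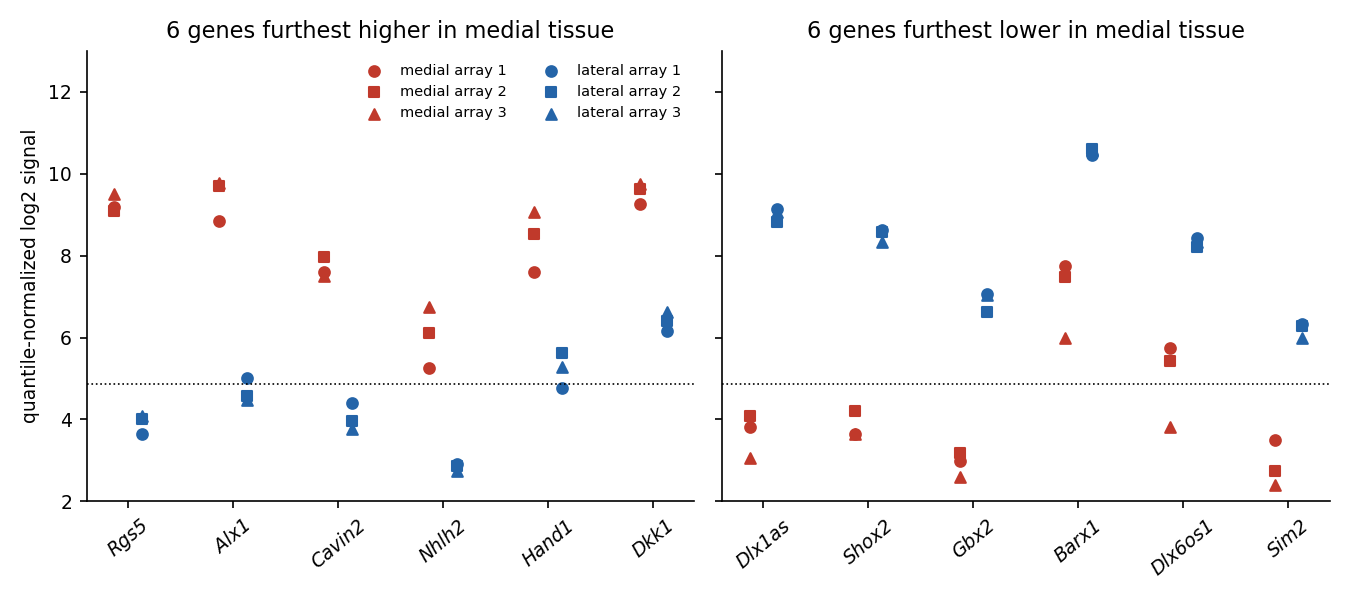
Quantile-normalized log2 signal (y axis) of the 6 genes furthest higher (left) and the 6 furthest lower (right) in medial tissue, with 1 symbol per array, medial arrays in red and lateral arrays in blue, and a dotted line at the filter level of 4.86. No medial array overlaps a lateral array for any of the 12 genes, which their choice required. For Rgs5, Cavin2, Nhlh2, Dlx1as, Shox2, Gbx2 and Sim2 every array of the lower tissue lies under the line.

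Among the 40 furthest genes in each direction, differences reached down to 1.75 in medial tissue and -1.82 in lateral tissue. In 36 of these 80 genes, 16 higher and 20 lower, the tissue with less signal had a mean below 4.86, so that the size and the rank of their differences rest on dim signal. This holds for 110 of the 554 called genes. Of the 80 genes, 33 belonged to none of the 66 gene lists examined. In medial tissue these included Pmp22, a membrane protein best known from myelin (2.75 ± 0.18), Gadd45g, a stress and growth-arrest gene (2.37 ± 0.13), Rtl3, a gene derived from a retrotransposon (2.20 ± 0.25), and Mme, the membrane peptidase neprilysin (2.19 ± 0.30). Pmp22 was at 9.24, 9.35 and 9.87 on the medial arrays and at 6.69, 6.95 and 6.57 on the lateral arrays. Gadd45g was as tightly grouped, at 8.18, 8.12 and 8.40 against 5.92, 5.85 and 5.80.

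In lateral tissue the genes outside the lists included Nap1l2, a nucleosome assembly gene (-2.19 ± 0.15), Fez1, a gene of axon transport (-2.11 ± 0.17), Dclk1, a microtubule-associated kinase (-2.06 ± 0.19), and Zbtb16, a zinc finger repressor (-1.95 ± 0.17). Nap1l2 was at 5.49, 5.81 and 5.47 on the medial arrays and at 7.74, 7.78 and 7.82 on the lateral arrays. Vgll2 and Vgll3, which encode cofactors of TEAD factors, were both lower in medial tissue, by -2.39 ± 0.28 and -1.82 ± 0.25. Vgll2 was at 6.41, 5.25 and 5.47 against 7.93, 7.96 and 8.42, and Vgll3 was dim in medial tissue.

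Transcription factor families differed widely in how many members separated the tissues. Each count of called list members here and below is read beside the shares over all tested genes, 2.82% higher and 1.8% lower. Of 22 tested NK-like homeobox genes, 3 were called higher and 9 lower (54.5%), and 2 and 8 of these kept the call. The list median was -0.42, against -0.01 for all tested genes. Besides Barx1 and Gbx2, the lower members included Emx2 (-3.17 ± 0.27, dim in medial tissue) and Dlx1 (-2.89 ± 0.43). Dlx1 was at 7.25, 6.54 and 5.16 on the medial arrays and at 9.41, 9.07 and 9.13 on the lateral arrays. Dlx2 was lower by -2.29 ± 0.15, Dlx3 by -1.87 ± 0.22, Dlx5 by -1.73 ± 0.28 and Dlx4 by -1.54 ± 0.14. Dlx4 was dim in medial tissue, and Dlx6 was tested and not called. The higher members that kept the call were Tlx1, a homeobox gene required for the spleen and present in the arches (1.69 ± 0.12), and Msx2, a BMP target (1.61 ± 0.24). Tlx1 was at 7.31, 7.26 and 7.19 against 5.69, 5.49 and 5.53. The mean over all probe sets gave a smaller difference for Msx2, 0.89.

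Of 37 tested basic helix-loop-helix and related genes, 8 were called higher and 8 lower (43.2%), and 6 and 4 kept the call. The median of the list was -0.03. Higher were Nhlh2 and Hand1, the second Hand gene Hand2 (1.45 ± 0.16), and the inhibitory factors Id4 (1.74 ± 0.14) and Id1 (1.04 ± 0.17). Members of the Ebf family went both ways, since Ebf1 was lower by -2.73 ± 0.17 and Ebf2 was higher by 1.14 ± 0.19. Ebf1 was at 3.92, 3.84 and 3.41 on the medial arrays against 6.61, 6.28 and 6.47, and Ebf2 at 7.26, 7.99 and 7.85 against 6.65, 6.54 and 6.49. The mean over all probe sets gave -1.49 for Ebf1. Also lower were Msc (-1.1004 ± 0.16) and Tcf15 (-1.08 ± 0.17), which are known from muscle precursors and somites.

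Forkhead genes also divided between the tissues. Of 27 tested, 5 were higher and 2 lower (25.9%), all 7 kept the call, and the list median was -0.08. The paralogues Foxf1 (2.13 ± 0.24) and Foxf2 (2.06 ± 0.18), which respond to hedgehog signals, were higher, as were Foxd2 (1.55 ± 0.24) and the endoderm factors Foxa1 (1.06 ± 0.13) and Foxa2 (0.95 ± 0.11). Foxf1 was at 8.28, 9.26 and 9.11 on the medial arrays against 6.72, 6.69 and 6.83. Foxc1 (-1.73 ± 0.28) and Foxc2 (-1.23 ± 0.18), which are known from mesenchyme of the eye, skull and heart, were lower. Foxc1 was at 6.75, 6.30 and 6.10 against 8.52, 7.81 and 8.01. The mean over all probe sets gave 1.096 for Foxf2.

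Smaller sets of factors had between 1 and 7 called members each, and their shares are read beside the 4.63% of all tested genes. Of 3 tested GATA genes, Gata3 was higher by 3.08 ± 0.12, at 7.54, 7.50 and 7.29 against dim values of 4.54, 4.24 and 4.32. Isl1, a LIM homeobox gene of the distal arch and of cardiac and pharyngeal precursors, was at 9.16, 9.31 and 9.69 against 6.66, 6.45 and 6.68, a difference of 2.80 ± 0.17. Among the 23 genes of the LIM, POU, Sine oculis and TALE homeobox classes, 3 were higher and 4 lower, 30.4% in all. Pou3f3 was lower by -2.61 ± 0.33 (-1.35 over all probe sets) and was dim in medial tissue. The TALE genes Meis2 (0.93 ± 0.12) and Pknox2 (-1.14 ± 0.16) lay on opposite sides. Sox9, which drives cartilage formation, was lower by -1.98 ± 0.33 and Sox2 was higher by 0.85 ± 0.13, the called genes among 14 tested Sox genes (14.3%). Of 21 odd-skipped, Sall, Snail and Zeb genes 2 were higher and 2 lower (19%), and of 23 nuclear receptor genes 3 were lower (13%). Osr2, an odd-skipped gene of palate and tooth mesenchyme, was lower by -2.59 ± 0.24 and was dim in medial tissue. Nr2f1, an orphan nuclear receptor, was at 9.40, 9.48 and 9.35 against 11.24, 11.03 and 11.11, a difference of -1.72 ± 0.11. Of 273 Zfp and Zfhx genes, 1 was called higher and 3 lower (1.47%), and Zfhx4 was lower by -1.89 ± 0.14.

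The teashirt genes were singled out after their values were seen. Tshz2 was higher in medial tissue by 1.95 ± 0.17, or 1.21 over all probe sets, and Tshz3 by 1.20 ± 0.17, while Tshz1 was lower by -1.26 ± 0.12. Tshz2 was at 7.08, 7.30 and 7.54 on the medial arrays and at 5.53, 5.33 and 5.21 on the lateral arrays. Tshz1 was at 8.80, 8.53 and 8.54 against 9.86, 9.88 and 9.90.

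**Figure D3:**
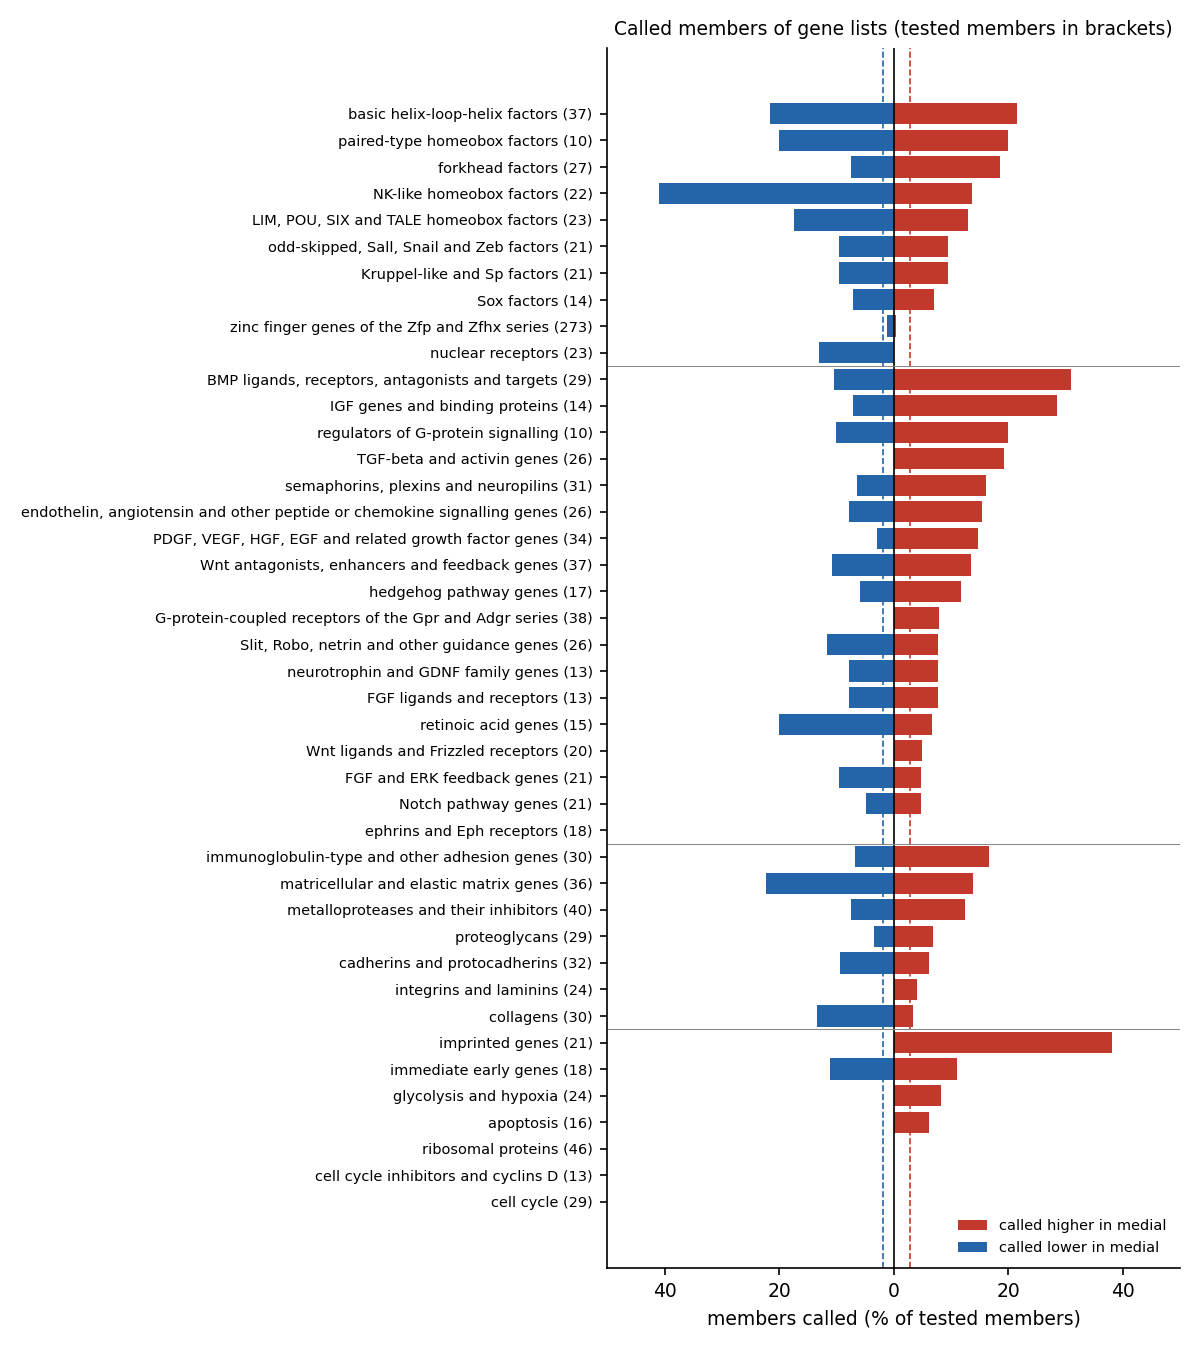
Share of tested members called higher (red, to the right) or lower (blue, to the left) in medial tissue, in % of the tested members given in brackets, for the lists of transcription factors, signalling genes, matrix and adhesion genes and cell state genes with at least 10 tested members. Dashed lines mark the shares over all tested genes, 2.82% higher and 1.8% lower, and the cell cycle, ribosomal protein and ephrin lists have no bar because none of their members was called.

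Among signalling genes, the BMP pathway had the most calls. Of 29 tested ligands, receptors, antagonists and targets, 9 were called higher and 3 lower (41.4%), and 7 and 3 kept the call. The list median was 0.43. Of the genes called higher, Id1, Id3 and Id4 are counted among the basic helix-loop-helix factors too, and Fst among the TGF-beta and activin genes. The call of Id3 was lost in some refits. The ligand gene Bmp4 was at 9.30, 9.77 and 9.85 on the medial arrays and at 7.52, 7.82 and 7.69 on the lateral arrays, a difference of 1.96 ± 0.18 (limma adjusted p = 0.000382). The ligand gene Bmp5 was higher by 1.72 ± 0.26. The decoy receptor gene Bambi (1.74 ± 0.13) and the inhibitory Smad gene Smad6 (1.39 ± 0.11), which BMP signals are known to induce, were higher too. In the opposite direction, the type I receptor gene Bmpr1b was at 5.42, 5.38 and 5.04 against 8.10, 7.57 and 7.79, a difference of -2.54 ± 0.28 (adjusted p = 0.00118). Bmper, which encodes a secreted BMP-binding protein, was lower by -2.45 ± 0.28 and was dim in medial tissue. Nbl1, a secreted antagonist gene, was lower by -1.11 ± 0.13.

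Of 26 tested TGF-beta and activin genes, 5 were higher and none was lower (19.2%), 3 kept the call, and the list median was 0.08. The ligand gene Tgfb2 was at 8.21, 8.86 and 8.66 on the medial arrays against 6.38, 6.50 and 6.34, a difference of 2.17 ± 0.17. Tgfbi, a matrix gene induced by TGF-beta, was higher by 1.19 ± 0.13, and Fst, which encodes the activin inhibitor follistatin, by 1.27 ± 0.18 from dim lateral values. Among 17 hedgehog genes, the ligand gene Shh was higher by 1.62 ± 0.14, at 9.03, 9.12 and 9.51 against 7.71, 7.53 and 7.55. The feedback genes of FGF signalling Spry1 (-1.45 ± 0.13) and Dusp6 (-1.32 ± 0.17) were lower, the members of their list of 21 that were called lower. In that list Fos was called higher (0.83 ± 0.15, from dim lateral values), a call lost in some refits. Of 15 tested retinoic acid genes, 1 was higher and 3 were lower. They included Cyp26a1, which degrades retinoic acid (-2.26 ± 0.12, dim in medial tissue), and Aldh1a2, which makes it (-1.30 ± 0.17). Jag1, a Notch ligand gene, was higher by 1.104 ± 0.16, and 21 Notch genes gave 1 call in each direction.

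Genes of axon and vessel guidance divided as well. Of 31 semaphorin, plexin and neuropilin genes, 5 were called higher and 2 lower, and Nrp2 (1.34 ± 0.13) and Sema3a (1.08 ± 0.11) kept the call. Nrp2, a receptor for class 3 semaphorins and VEGF-C, was at 8.97, 9.14 and 9.06 against 7.72, 7.76 and 7.65. Vegfc itself was higher by 1.04 ± 0.15. The netrin gene Ntn1 was lower by -2.05 ± 0.34, or -1.05 over all probe sets, while its receptor gene Unc5c was higher by 1.57 ± 0.13. Ntn1 was at 3.35, 4.85 and 4.50 on the medial arrays against 6.33, 6.25 and 6.28, and medial replicate 1 was the lowest. Lrig3 (-1.90 ± 0.22) and Lrig1 (-1.25 ± 0.16), which encode membrane proteins that restrain growth factor receptors, were both lower, and Lrig1 was at -0.81 over all probe sets. No member of the 18 tested ephrin and Eph receptor genes was called by limma, and 7 of these 18 had groups that did not overlap, against 25.0% of all tested genes. With 4.63% of all tested genes called, this list is too small to read an absence of calls.

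Growth factor genes of other families were also called. Of 34 PDGF, VEGF, HGF, EGF and related genes, 5 were called higher and 1 lower, with a median of 0.24. Over all tested genes, 2.82% were called higher and 1.8% lower. Pdgfrl, a PDGF receptor-like gene, was higher by 1.98 ± 0.16 and Pdgfc by 1.25 ± 0.15, and Mertk, a receptor for the uptake of dying cells, was lower by -1.06 ± 0.12. Of 14 IGF genes and binding proteins, 4 were higher and 1 lower, with a median of 0.10. Igf2 and Igf2r are also counted among the imprinted genes. Igf2 was at 13.12, 13.15 and 13.16 against 12.25, 12.44 and 12.34, a difference of 0.80 ± 0.10, and its receptor gene Igf2r differed by 0.79 ± 0.12. Igfbp5 was higher by 1.096 ± 0.18. Ghr, the growth hormone receptor gene, was outside the lists and was higher by 1.35 ± 0.12.

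Imprinted genes stood on the medial side wherever they were called. Of 21 tested, 8 were higher and none was lower (38.1% called, against 4.63% of all tested genes). Of these, 6 kept the call, and the list median was 0.59. Plagl1, a zinc finger gene of an imprinted growth network, was at 12.78, 13.12 and 13.23 on the medial arrays and at 11.47, 11.35 and 11.52 on the lateral arrays, a difference of 1.59 ± 0.14. Magel2 was higher by 1.25 ± 0.13. Dcn, which is imprinted in placenta and encodes the matrix proteoglycan decorin, was higher by 1.86 ± 0.22, or 0.87 over all probe sets.

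A set of genes of cyclic GMP signalling, G-protein control and the actin cytoskeleton was described after its values were seen. Gucy1b1 and Gucy1a1 encode both subunits of the soluble guanylyl cyclase, which makes cyclic GMP in response to nitric oxide. Gucy1b1 was at 5.37, 6.15 and 6.01 on the medial arrays and at 4.34, 3.86 and 3.80 on the lateral arrays, a difference of 1.85 ± 0.22. Gucy1a1 was at 5.16, 5.14 and 5.14 against 3.76, 3.23 and 3.12, a difference of 1.78 ± 0.16, or 0.78 over all probe sets. Lateral values of both were dim. Prkg1, the cyclic GMP-dependent kinase gene, was higher by 0.82 ± 0.13, and Npr3, the clearance receptor gene for natriuretic peptides, by 2.02 ± 0.19.

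Rgs4, which neighbours Rgs5 on the chromosome, was higher by 1.72 ± 0.21 from dim lateral values. Of 10 tested Rgs genes, 2 were called higher and 1 lower. Among genes of actin filaments and Z-discs, Synpo2 was at 7.81, 8.01 and 8.17 against 5.01, 5.25 and 4.70, a difference of 3.01 ± 0.16, or 1.52 over all probe sets. Pdlim3 (2.11 ± 0.18), Nexn (1.53 ± 0.12) and the formin gene Fhod3 (1.15 ± 0.15) were higher as well, and Pdlim3 and Nexn were dim in lateral tissue. Of 47 potassium, sodium and calcium channel genes, 3 were called, all higher, a share of 6.38% beside the 4.63% of all tested genes. They were Kcnj13 (1.56 ± 0.21), Cacna1d (1.08 ± 0.13, or 0.67 over all probe sets) and Kcnmb2 (1.07 ± 0.16). Kcnj13 and Cacna1d were dim in lateral tissue.

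Matrix genes were called on both sides. Of 36 matricellular and elastic matrix genes, 5 were called higher and 8 lower (36.1%). Of these, 4 and 8 kept the call, and the list median was 0.01. Lower were the elastic-fibre genes Efemp1 (-2.76 ± 0.26), Fbln5 (-1.21 ± 0.16) and Emilin2 (-2.03 ± 0.23), the crosslinking enzyme gene Lox (-1.45 ± 0.23), and Ccn2, which encodes connective tissue growth factor (-2.69 ± 0.29). Ccn2 was at 5.92, 7.08 and 6.63 on the medial arrays and at 9.26, 9.05 and 9.41 on the lateral arrays. Over all probe sets the difference was -0.72 for Fbln5 and -0.74 for Lox. Smoc2 (-2.94 ± 0.20) and Smoc1 (-1.88 ± 0.20), which encode calcium-binding matrix proteins, were lower, as was Spon1 (-2.15 ± 0.32). Efemp1, Lox, Smoc2 and Spon1 were dim in medial tissue.

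Higher were Ndnf, a secreted fibronectin-type protein gene (2.93 ± 0.14), Postn, which encodes periostin (1.52 ± 0.17), Frem1, a basement membrane gene (1.42 ± 0.16), and Sparc (0.99 ± 0.14). Ndnf was at 9.89, 9.77 and 10.25 against 6.96, 7.10 and 7.08. The small leucine-rich proteoglycan gene Lum was at 8.59, 9.23 and 9.46 against 7.17, 7.20 and 7.07, a difference of 1.95 ± 0.20. Of 30 tested collagen genes, 1 was called higher and 4 lower (16.7%). They included Col8a2 (-3.13 ± 0.32, dim in medial tissue), the transmembrane collagen genes Col25a1 (-1.82 ± 0.23, or -1.15 over all probe sets) and Col23a1 (-1.40 ± 0.18).

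Adhesion genes gave calls in both directions. Of 30 immunoglobulin-type and other adhesion genes, 5 were higher and 2 lower (23.3%). Cntn1 (2.16 ± 0.17, or 1.26 over all probe sets, and dim in lateral tissue), Islr (1.46 ± 0.23) and L1cam (1.11 ± 0.12) were higher, and Lrrn1 was lower by -1.76 ± 0.20, or -0.46 over all probe sets. Of 32 cadherin and protocadherin genes, 2 were higher and 3 lower (15.6%). The desmosomal cadherin gene Dsg2 differed by 1.84 ± 0.19 and Pcdh19 by -1.85 ± 0.24. Dsg2 was at 8.70, 8.81 and 9.22 against 7.39, 6.93 and 6.90. The connexin genes Gjb2 (-1.07 ± 0.12) and Gjb6 (-1.21 ± 0.18) and both arginase genes, Arg1 (-1.65 ± 0.13) and Arg2 (-1.31 ± 0.21), were lower. These 4 genes were in no list and were chosen after their values were seen, and Gjb6, Arg1 and Arg2 were dim in medial tissue.

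Summed signals of several cell type marker lists, arch mesenchyme included, did not overlap between the tissues, while those of red cells, macrophages, mural cells, differentiated muscle, heart and Hox genes overlapped. In bulk tissue, fewer cells of a type and less RNA per cell cannot be told apart. Of 26 tested epithelial markers, 11 were called higher and none lower (42.3%), 7 kept the call, and the list median was 0.57. Krt18 was at 9.40, 9.05 and 9.19 against 7.78, 7.75 and 7.66, a difference of 1.49 ± 0.15, and Krt8 differed by 1.34 ± 0.14. Basal Krt14 was higher by 1.11 ± 0.17, while Krt5 was not called (-0.32 ± 0.15). Of 19 tested keratin genes, 3 were called higher and none lower, and the median of the keratin list was -0.03. The summed signal of the 26 genes, on the log2 scale, was between 12.45 and 12.66 in medial tissue and between 11.77 and 11.78 in lateral tissue. Of 10 pharyngeal endoderm markers, 4 were called higher and none lower, and the list median was 0.23. Their summed signal was between 10.19 and 10.52 against 9.45 to 9.49. Pax9 (-0.69 ± 0.27), Nkx2-5 (-0.27 ± 0.26) and Ttr (-0.16 ± 0.24) had differences below 0 and were not called. Foxa1, Foxa2, Shh and Sox2 are the 4 higher endoderm members, and Krt8, Krt18 and Krt14 are epithelial. These higher genes also stand among the families above and are not separate evidence.

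The summed signal of 22 endothelial markers was between 12.13 and 12.42 in medial tissue and between 11.87 and 11.96 in lateral tissue, with 4 members higher and 1 lower. Of 12 mural cell markers, 2 were higher, of which Rgs5 kept the call, and the summed signals overlapped, at 10.94 to 11.54 against 10.92 to 11.05. Of 10 neuronal and axonal markers, 3 were higher, none was lower and the list median was 0.0. The growth cone gene Gap43 was at 10.10, 9.84 and 10.03 against 8.45, 8.38 and 8.40, a difference of 1.58 ± 0.19. Dcx was higher by 1.55 ± 0.20, or 0.72 over all probe sets, from dim lateral values. Isl2 was higher by 0.99 ± 0.20, a call lost when any of 4 of the 6 arrays was left out. The pan-neuronal genes Tubb3 (-0.07 ± 0.11), Elavl3 (-0.24 ± 0.20), Rbfox3 (-0.29 ± 0.28) and Nefl (-0.52 ± 0.21) were not called and had differences below 0, although Nefl and Rbfox3 passed the threshold on the lower side with array weights, and Nefl also over all probe sets. The summed signal of the list was 10.39 to 10.63 against 9.54 to 9.62. Without Gap43, left out after its values were seen, the summed signals overlapped, at 8.72 to 9.04 against 8.63 to 8.83. Among glial and neural crest markers the summed signal was lower in medial tissue, with 1 higher and 4 lower of 12 and a summed signal of 10.14 to 10.34 against 10.53 to 10.62. In that list Fabp7, a fatty acid binding protein gene of glial precursors, was lower by -2.06 ± 0.14 and was dim in medial tissue. Sox9 (-1.98 ± 0.33), which is also in the cartilage and bone list, was lower too. Ngfr (-0.94 ± 0.17) and Tfap2b (-1.33 ± 0.29) were called lower and Ednrb (1.12 ± 0.20) higher, calls lost in some refits. The glial genes Sox10 (-0.27 ± 0.14) and Erbb3 (0.47 ± 0.17) were not called. A sum without Sox9 was not made.

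Cartilage and bone markers were lower in sum in medial tissue, at 11.84 to 12.03 against 12.27 to 12.37, with none higher and 3 lower of 13. The summed signal of 12 muscle precursor markers was higher, at 10.59 to 11.04 against 10.04 to 10.16, although the list median was -0.16. Of these markers 1 was called higher, Isl1 (2.80 ± 0.17). The 2 called lower were Msc (-1.10 ± 0.16) and Tcf21 (-0.79 ± 0.14, a call lost in some refits). A sum without Isl1 was not made. The 20 arch mesenchyme markers all passed the filter, with a summed signal of 14.36 to 14.44 in medial tissue and 14.19 to 14.22 in lateral tissue. Of these markers 4 were called higher and 5 lower (45.0%), and the list median was 0.0. Called members such as Dlx1, Dlx2, Hand2 and Msx2 are also counted among the families above. Of 33 Hox genes named on the array, 9 passed the filter and none was called by limma, and of 13 heart genes 3 passed and none was called. No call was made among 9 red cell and 11 macrophage markers, and their summed signals overlapped between the tissues. With 4.63% of all tested genes called, the Hox, heart, red cell and macrophage lists are too small to read an absence of calls. What part the epithelial, endodermal, endothelial and neuronal signal has in the calls of other genes was not tested.

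**Figure D4:**
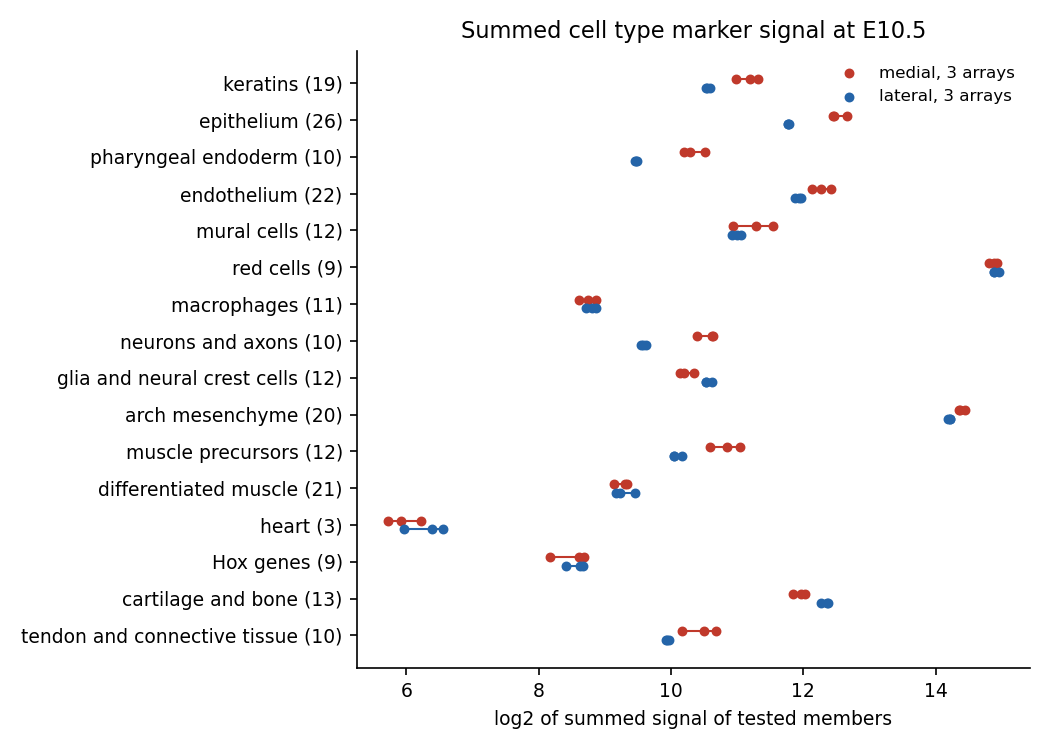
Log2 of the summed signal of the tested members of each cell type marker list (x axis) on the 3 medial (red) and 3 lateral (blue) arrays, joined by a line per group. Medial arrays lie above all lateral arrays for the epithelial, endodermal, endothelial and neuronal lists (the neuronal one only with Gap43 in the sum) and below them for the cartilage and bone list and the glial list, and the groups overlap for red cells and macrophages.

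Counts in lists of general cell state are read beside the 4.63% of all tested genes. None of 29 cell cycle genes, 13 cell cycle inhibitor and cyclin D genes or 46 ribosomal protein genes was called by limma, and their medians were -0.05, -0.04 and -0.02. Beside that share, these lists are too small to read an absence of calls. Of 24 glycolysis and hypoxia genes, 2 were higher, which is 8.33%, and of 16 apoptosis genes 1 was higher, which is 6.25%. Of 18 immediate early genes, 2 were higher and 2 lower, 22.2% in all. Of 215 solute carrier genes, 3 were higher and 3 lower, 2.79% in all, and the share among all tested genes was 4.63%.

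Genes that differed between the tissues were in part neighbours on the chromosome. Among 11947 tested genes with a RefSeq position, taken in order along each chromosome, 11.2% of the neighbours of called genes were themselves called, against 4.63% of all tested genes. A total of 62 neighbouring pairs held called genes on both sides, of which 43 went the same way, 32 higher and 11 lower. In the following pairs both genes kept the call. Higher were Rgs5 with Rgs4, Dcn with Lum, Krt8 with Krt18 and Gucy1b1 with Gucy1a1. Also higher were Kazald1 (1.95 ± 0.18, dim in lateral tissue) with Tlx1, and Dkk1 with Prkg1. Cavin2 was higher with Nabp1 (1.38 ± 0.15, or 0.83 over all probe sets). Lower were Dlx1 and Dlx1as with Dlx2, Dlx3 with Dlx4, Gjb2 with Gjb6, Shox2 with Ptx3 (-1.60 ± 0.19) and Fez1 with Pknox2. Most of the same-way pairs just named for Dlx, Gucy1, Rgs, Krt and Gjb genes are members of 1 family, and Dlx1as overlaps Dlx1, so such pairs are not independent genes.

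RefSeq promoters (assembly GRCm38.p6, 300 bases around the start) were listed for 255 genes called higher, 160 called lower and 9645 tested genes in all. Searched on both strands were 7 motifs, which can overlap each other. They were the homeodomain core TAATTA and its variant TAATTG, the E-boxes CATCTG and, in a further form, CATATG, the GATA core AGATAA, the TALE core TGACAG and the sequence TATAAA. The last of these, the core of the TATA box, was in 12.5% of the promoters of higher genes, 6.25% of those of lower genes and 6.94% of all. The shares in the same order were 3.14%, 5.62% and 2.28% for TAATTA and 8.24%, 3.12% and 4.53% for TAATTG. They were 15.7%, 12.5% and 11.2% for CATCTG, 1.18%, 1.88% and 1.53% for CATATG, 6.67%, 4.38% and 6.05% for AGATAA and 18.8%, 13.8% and 16.2% for TGACAG. The median ratio of observed to expected CpG was 0.646 for higher genes, 0.714 for lower genes and 0.77 for all. With TATAAA on the strand of the gene and starting 40 to 20 bases before the start, a window set after the data were seen, the counts were 9 of 255 higher genes (3.53%), 2 of 160 lower genes (1.25%) and 131 of all 9645 (1.36%).

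Of the 80 furthest genes, 55 had a promoter entry, and 4 of them, all higher in medial tissue, held TATAAA in that window. They are shown with Rgs5 and Shox2, the furthest higher and lower genes with an entry, which held none in the stretch shown. Each line gives 80 bases on the strand of the gene, from 60 before to 20 after its start, with TATAAA in capitals.
Gadd45g: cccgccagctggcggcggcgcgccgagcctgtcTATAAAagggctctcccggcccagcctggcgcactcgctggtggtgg
Tgfb2: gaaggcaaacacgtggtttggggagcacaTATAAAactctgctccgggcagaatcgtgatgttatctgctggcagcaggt
Dapl1: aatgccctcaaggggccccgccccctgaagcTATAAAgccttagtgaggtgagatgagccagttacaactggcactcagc
Dio2: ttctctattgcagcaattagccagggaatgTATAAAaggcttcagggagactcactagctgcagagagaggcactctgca
Rgs5: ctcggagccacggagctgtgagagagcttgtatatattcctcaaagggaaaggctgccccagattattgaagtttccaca
Shox2: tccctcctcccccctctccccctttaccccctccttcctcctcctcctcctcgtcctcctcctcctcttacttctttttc

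The stretches lie at chr13:51846615-51846694 (plus strand) for Gadd45g, chr1:186705970-186706049 (minus strand) for Tgfb2, chr2:59484593-59484672 (plus strand) for Dapl1, chr12:90739019-90739098 (minus strand) for Dio2, chr1:169655441-169655520 (plus strand) for Rgs5 and chr3:66981752-66981831 (minus strand) for Shox2. The TATAAA starts 27 bases before the start of Gadd45g, 31 before that of Tgfb2, 29 before that of Dapl1 and 30 before that of Dio2. Dapl1, a gene of differentiating epithelium, was at 8.04, 7.48 and 7.18 on the medial arrays and at 5.69, 5.46 and 5.60 on the lateral arrays, a difference of 1.99 ± 0.26. Dio2, which encodes the deiodinase that activates thyroid hormone, was higher by 1.77 ± 0.21, or 0.74 over all probe sets, from dim lateral values. A match of letters is a description and shows no binding.

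At E9.7, where 1 medial and 1 lateral array were measured, most called genes lay on the same side. These arrays took no part in the contrast at E10.5, though all 11 arrays were normalized together. Of 338 genes higher at E10.5, 322 (95.3%) were higher at E9.7, 89 of them by at least 2-fold. Of 216 lower genes, 195 (90.3%) were lower at E9.7, 65 by at least 2-fold, and no called gene was 2-fold apart in the opposite direction. Among all tested genes, 0.986% were at least 2-fold higher and 0.635% at least 2-fold lower in the medial array at E9.7. Of the genes not called, 64.7% of those above 0 at E10.5 and 56.6% of those below 0 had the same sign at E9.7. Rgs5 was at 7.99 in medial and 3.66 in lateral tissue at E9.7, and Pmp22 at 9.46 and 6.22. Smoc1 was at 5.50 in medial and 9.01 in lateral tissue, which was further apart than at E10.5.

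For some genes the tissues were closer at E9.7. Shox2 was at 3.61 in medial and 4.72 in lateral tissue, Dlx1as at 3.53 and 5.51, Cavin2 at 5.29 and 4.19 and Alx1 at 6.04 and 4.40. In a limma contrast of the difference at E10.5 against that at E9.7, added after the data were seen, in which the lone E9.7 arrays were assumed to vary like the other groups, 0 of 11967 genes (0.0%) passed, and 232 had an unadjusted p under 0.05. The smallest adjusted p were those of Shox2 (0.075, a change of -3.59 ± 0.38 between the stages) and Fabp7 (0.147, a change of -2.20 ± 0.28). A change between the stages therefore passed the test for no gene.

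**Figure D5:**
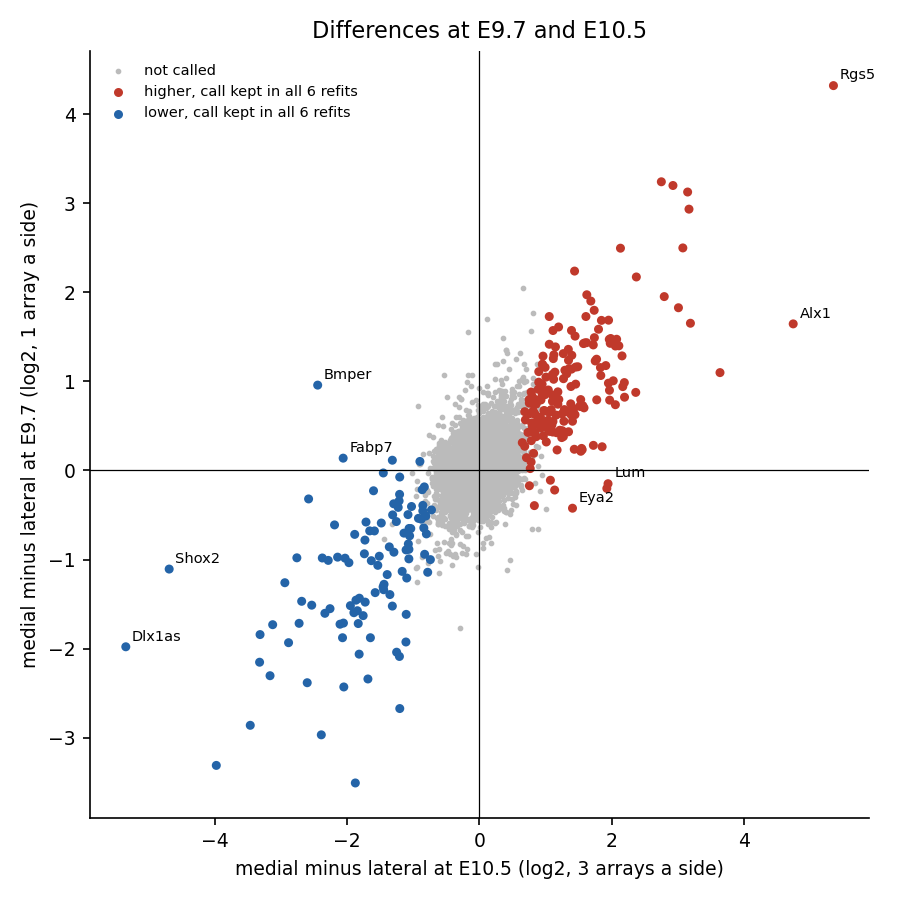
Medial minus lateral difference at E10.5 (x axis, log2, 3 arrays a side) against that at E9.7 (y axis, log2, 1 array a side), with grey points for genes that were not called and coloured points for the 283 genes that kept the call in all 6 refits. Most coloured points lie in the lower left and upper right quadrants, and Bmper, Fabp7, Lum and Eya2 are named among those that do not.

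Other probe sets of the same genes, which read other parts of the transcript on the same arrays, gave the same sign in most cases. For genes called higher, 259 of 276 other probe sets that passed the filter were also above 0 (93.8%), and for genes called lower, 139 of 145 were below 0 (95.9%). For genes not called, 63.3% of other probe sets had the sign of the first. Of the other probe sets of called genes, 196 of the 276 and 115 of the 145 showed at least 50% of the difference of the first.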

How the data were processed

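RNA was measured on 11 Affymetrix arrays, and 6 of them, 3 medial and 3 lateral, make up the comparison at E10.5. Per the submitters' processing notes, the authors used Affymetrix Expression Console 1.1, and the summary algorithm is not given in the sources used here. These deposited values were taken as log2 signals from their range, and the log base is inferred. They were quantile-normalized across the 11 arrays, because replicate 1 of medial E10.5 and of medial E11.5 had far lower deposited medians than the rest. Of 45101 probe sets, 34958 had 1 gene symbol, 932 several and 9211 none in the probe table used, and 34741 were matched to RefSeq by Entrez ID. Probe sets of controls were left out, and the probe set with the highest mean stood for a gene.

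The fit used limma 3.58.1 (R 4.3.3) with 1 mean for each of 6 groups and 5 residual degrees of freedom, with Benjamini-Hochberg adjustment over 11967 genes. The procedure was tested on simulated data. Named genes were drawn from the 40 highest and 40 lowest differences among eligible genes, without predicted transcripts. Eligible genes kept the call in each of 6 leave-one-out refits and had medial and lateral arrays that did not overlap. Further genes were drawn from up to 4 members per list and direction with the smallest adjusted p. Not every gene of either set is named in the text. Other named genes were chosen after their values were seen. The comparison, the members and the 66 lists were chosen with earlier results of these data known. Lists are described by counts and medians without a test. Alternatives were other scalings, filters, probe set summaries, variance models, thresholds, array weights, blocks and leaving out arrays.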

Additional observations from a re-analysis of the deposited data

Results flagged for a closer look

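For 8 genes that were at least 2-fold apart at E10.5 and kept their call in every refit, the lone medial and lateral arrays at E9.7 lay in the opposite order to all arrays at E10.5. The BMP-binding protein gene Bmper differed by 0.96 at E9.7 (5.33 in medial and 4.37 in lateral tissue) and by -2.45 at E10.5, where it was at 3.89, 4.13 and 3.96 against 6.89, 6.19 and 6.24. Eya2, a transcriptional coactivator gene, differed by -0.42 at E9.7 and by 1.41 at E10.5, where it was at 5.31, 5.80 and 5.26 against 4.01, 4.01 and 4.12.

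Ebf2 differed by -0.22 at E9.7, Rgcc by -0.20, Lum by -0.15 and Kcnmb2 by -0.11, and all 4 were higher in medial tissue at E10.5. Lum was at 6.87 in medial and 7.02 in lateral tissue at E9.7. Fabp7 differed by 0.14 and the Kruppel-like gene Klf4 by 0.12 at E9.7, and both were lower in medial tissue at E10.5, Klf4 by -1.32 ± 0.23. In the limma contrast of the stages, with 1 array a side at E9.7, none of the 8 passed, with adjusted p of 0.147 for Fabp7, 0.324 for Bmper, 0.42 for Eya2, 0.524 for Lum and 0.88 for Rgcc, and 1.0 for Ebf2, Kcnmb2 and Klf4.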

How the results depend on the processing

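The 554 calls (338 higher, 216 lower) became 2 (0 and 2) with the values as deposited and 358 (243 and 115) after median centring of every array. They became 2831 (1325 and 1506) with array weights and 1254 (727 and 527) with the control-probe group as a fixed effect. At an adjusted p under 0.01 they were 300 (191 and 109), and with at least 2-fold 251 (145 and 106). Leaving out 1 array gave 310 to 528 calls, 194 to 330 higher and 116 to 199 lower. The count stayed between 500 and 712 under the other alternatives. The cause of these changes was not tested. The share of called genes with the same sign at E9.7 (93.3%) and of other probe sets with the same sign (94.5%) stayed within 1.5 times under the alternatives tried.

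With the replicate number as a fixed effect (replicate block) 611 genes were called. Same-numbered medial and lateral arrays correlated in their deviations at 0.128, -0.294 and 0.478, so the numbers are not taken to pair the samples.

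With the values as deposited, where all genes shifted by -1.02 at the median, the sign turned for Foxa1 (-0.058), Foxa2 (-0.20), Sox2 (-0.23), Igf2 (-0.15), Igf2r (-0.15), Vegfc (-0.0295), L1cam (-0.066), Prkg1 (-0.30), Cacna1d (-0.0505), Kcnmb2 (-0.079), Id3 (-0.22) and Isl2 (-0.14).
The 80 furthest genes kept direction and call under every alternative that tested them except the values as deposited, under which 78 lost the call. In the refits that left out an array of the comparison, keeping the call was a condition of their choice. Those refits are therefore no separate check of these 80 genes. Dim signal limits the size of 110 of the 554 differences.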
